A study of Homo sapiens with 4 samples.

Results

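The 10 genes described here encode the D-type cyclins (CCND1, CCND2, CCND3), the kinases they activate (CDK4, CDK6) and inhibitors of cyclin-dependent kinases (CDKN1A, CDKN1B, CDKN1C, CDKN2A, CDKN2B). Every probe set annotated to exactly 1 of these symbols was taken, whatever its value, which gave 28 of the 54675 probe sets on the array and 10 of 19775 genes. A probe set is a group of short probes read together as 1 value for a transcript. The values came from 4 arrays of 2 human colorectal cancer cell lines, 1 array for each title. HCT116 was measured as HCT116-CDX1 and HCT116-Vec, and LS174T as LS174T-siCDX1 and LS174T-siVec. By their names, HCT116-CDX1 carries added CDX1, LS174T-siCDX1 has CDX1 lowered by interfering RNA, and Vec and siVec are the vector controls of each line. Constructs, collection time and whether each line is a clone or a pool are not given in the sources used here, nor is any replicate culture. The series concerned control of the cytokeratin gene KRT20 by CDX1, an intestinal homeobox protein.

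D-type cyclins are made in response to growth signals and bind CDK4 or CDK6. The active kinase phosphorylates the retinoblastoma protein, which releases E2F factors and lets the cell pass from G1 into DNA synthesis. INK4 inhibitors, here CDKN2A and CDKN2B, bind CDK4 and CDK6 themselves and keep cyclins away. CIP/KIP inhibitors, here CDKN1A, CDKN1B and CDKN1C, bind cyclin-kinase complexes and block chiefly CDK2. In the intestinal crypt, cell division stops as cells differentiate, and CDKN1A is known as an inhibitor present in the cells that leave the dividing zone.

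Values are RMA expression on the log2 scale, so a difference of 1 is a 2-fold change. A probe set was taken as measured in a comparison where the brighter of the 2 arrays was at least 6, and "rose" or "fell" are used of a measured probe set that differed by at least 1. Each title has 1 array, so differences within a pair stand without replicates and without a test, and so few arrays limit how precise any value is. The 18 spike-in probe sets, which read RNA added in equal amounts, differed by at most 0.349 in size in the HCT116 pair, 0.170 in the LS174T pair and 0.356 between the vector arrays. Being added RNA, they do not show the spread between cultures, so a difference beyond them can still be culture spread. CDX1 was at 9.06 in LS174T-siCDX1 and 10.46 in LS174T-siVec, and at 8.24 in HCT116-CDX1 and 8.21 in HCT116-Vec. The CDX1 probe set was thus no higher on the HCT116-CDX1 array, and directions given for the HCT116 pair follow the array titles. KRT20 was at 9.38 on the array labelled HCT116-CDX1 and 6.36 on HCT116-Vec, and at 5.45 in LS174T-siCDX1 and 8.15 in LS174T-siVec. All 7 epithelial markers read were at 7.04 or more on every array. Markers of other cell types were not all under the floor. At or above it were 5 of 6 fibroblast markers and 2 of 4 endothelial markers on every array, and of 4 leukocyte markers 3 on each LS174T array and 2 on each HCT116 array. The floor lay below the median of each array, and 39474 to 39877 of all 54675 probe sets reached it per array. Passing the floor therefore does not by itself show that these markers are expressed. COL1A1 was at 8.86 to 9.14 over the 4 arrays and CD3E at 7.76 to 8.07, while LUM and CD14 were under 6 on all 4. The log2 summed level was 10.05 to 10.17 for the fibroblast list and 8.58 to 8.65 for the endothelial list. Lysozyme (LYZ), on the leukocyte list but also made by intestinal cells, was at 11.74 in LS174T-siCDX1, 11.25 in LS174T-siVec, 5.21 on the array labelled HCT116-CDX1 and 4.97 in HCT116-Vec.

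Promoter sequence is shown for CDKN1A, the inhibitor whose level fell within a pair, for the CDK6 start that held the only CDX core among the members' promoters, and for both starts of CDKN2A, since that gene makes a different protein from each. The sequences are the 250 bases before the start in RefSeq, build GRCh38.p14, written 5′ to 3′ on the gene's strand. They lie at chr6:36678464-36678713 on the plus strand for CDKN1A, chr7:92833960-92834209 on the minus strand for CDK6, and chr9:21995325-21995574 and chr9:21974858-21975107 on the minus strand for CDKN2A. From the outer CDKN2A start comes the ARF protein, which acts through p53, and from the inner start the INK4a protein, the inhibitor of CDK4 and CDK6. Capitals mark the GC box GGGCGG and the CDX core TTTAT, searched on both strands.

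CDKN1A: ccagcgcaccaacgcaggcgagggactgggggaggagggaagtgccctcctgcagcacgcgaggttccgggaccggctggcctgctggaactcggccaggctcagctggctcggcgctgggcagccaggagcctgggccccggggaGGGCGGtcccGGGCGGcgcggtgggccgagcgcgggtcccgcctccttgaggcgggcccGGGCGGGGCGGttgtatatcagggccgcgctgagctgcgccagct

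CDK6 second start: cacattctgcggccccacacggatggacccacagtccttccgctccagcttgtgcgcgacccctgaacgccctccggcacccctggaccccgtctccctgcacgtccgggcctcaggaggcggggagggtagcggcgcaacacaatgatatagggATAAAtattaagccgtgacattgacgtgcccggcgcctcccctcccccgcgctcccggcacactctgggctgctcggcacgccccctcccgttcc

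CDKN2A outer start: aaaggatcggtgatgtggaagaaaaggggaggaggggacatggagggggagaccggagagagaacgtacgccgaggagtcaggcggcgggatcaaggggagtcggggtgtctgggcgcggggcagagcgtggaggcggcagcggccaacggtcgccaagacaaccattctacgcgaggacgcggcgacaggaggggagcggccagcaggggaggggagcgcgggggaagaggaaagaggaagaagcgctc

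CDKN2A inner start: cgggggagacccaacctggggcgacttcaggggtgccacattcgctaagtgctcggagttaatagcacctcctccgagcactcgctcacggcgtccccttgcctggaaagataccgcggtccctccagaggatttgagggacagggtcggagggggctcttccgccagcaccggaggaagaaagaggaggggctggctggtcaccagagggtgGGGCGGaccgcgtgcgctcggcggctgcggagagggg

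The promoter table held 11 starts for 7 of the members, and CCND1, CCND2 and CDKN1C had no entry. The CDX core occurred in 1 of these 11, at the CDK6 start above and on its opposite strand, beginning 95 bases before the start. Over all 35116 promoters of the same length 32.7% held it. The CDKN1A promoter held 4 GC boxes, of which the last 2 share 1 base, and 42.6% of all promoters held at least 1. The inner CDKN2A promoter held 1 GC box and the outer promoter none. A match describes the letters in this window and shows no binding.

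**Figure D1:**
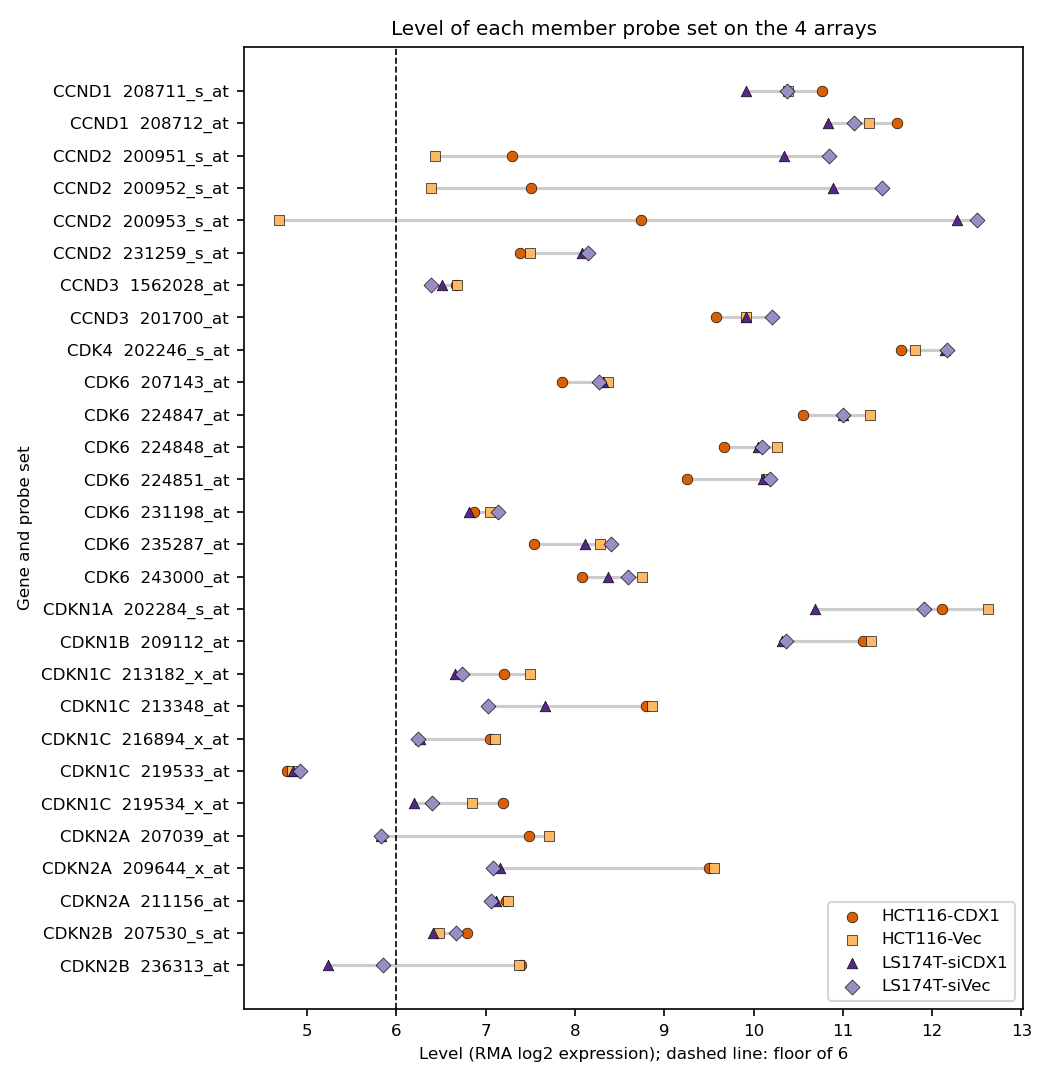
Level of each of the 28 member probe sets (rows) on the 4 arrays, as RMA log2 expression on the horizontal axis, 1 point per array; the dashed line is the floor of 6. The longest row is CCND2 200953_s_at, with 12.51 in LS174T-siVec and 4.69 in HCT116-Vec, and CDKN1C 219533_at lies under the floor on all 4 arrays.

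CCND2, the cyclin D2 gene, separated the 2 lines more than any other member and was higher on the array labelled HCT116-CDX1 than on HCT116-Vec in 3 of its 4 probe sets. In 200953_s_at the level was 8.74 on the array labelled HCT116-CDX1, 4.69 in HCT116-Vec, 12.28 in LS174T-siCDX1 and 12.51 in LS174T-siVec. In 200952_s_at it was 7.51 on the array labelled HCT116-CDX1, 6.39 in HCT116-Vec, 10.89 in LS174T-siCDX1 and 11.44 in LS174T-siVec. In 200951_s_at it was 7.30 on the array labelled HCT116-CDX1, 6.44 in HCT116-Vec, 10.35 in LS174T-siCDX1 and 10.85 in LS174T-siVec. These 3 probe sets put the arrays in 1 order, with both LS174T arrays at the top and HCT116-Vec at the bottom. The fourth, 231259_s_at, read 7.39 on the array labelled HCT116-CDX1, 7.50 in HCT116-Vec, 8.08 in LS174T-siCDX1 and 8.14 in LS174T-siVec. It kept both LS174T arrays on top but placed the array labelled HCT116-CDX1 last, and its 4 levels spanned only 0.755, against 7.82 for 200953_s_at.

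The CCND2 probe sets therefore disagreed on the HCT116 pair. The difference was 4.05 in 200953_s_at, 1.12 in 200952_s_at, 0.86 in 200951_s_at and -0.11 in 231259_s_at, so that 2 of 4 rose, 1 was higher by less than 2-fold and 1 lay inside the range of the spike-ins. As a fold, 200953_s_at read 16.5, but HCT116-Vec lay under the floor there, and against a level of 6 the rise was at least 6.66-fold. The rise of 200952_s_at, with both arrays above the floor, was 2.17-fold. The mean over the 4 probe sets was 1.48 with a standard deviation of 1.79, which is a spread over probe sets of the same 2 arrays and no replicate error. In bulk RNA, fewer expressing cells and less RNA per cell cannot be told apart. Among 8391 genes with at least 2 measured probe sets in this pair, 0 had a wider range between probe sets than the 4.16 of CCND2, and the median range was 0.27. Among the 1019 genes with 4 measured probe sets the median was 0.41, and again 0 were wider. The 4.16 includes the level of 200953_s_at under the floor in HCT116-Vec. With levels under 6 set to 6 the difference of 200953_s_at was 2.74, and the ranking was not repeated at that setting. All 4 names end in _s_at, which marks probes shared between transcripts, and which transcripts each reads was not tested.

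**Figure D2:**
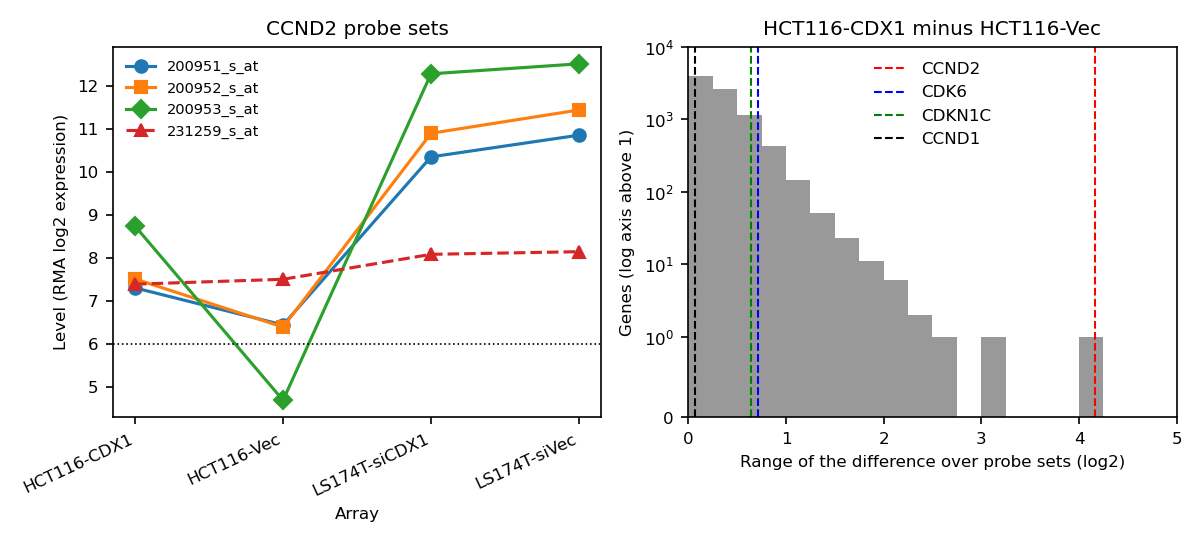
Left, the level (RMA log2 expression) of the 4 CCND2 probe sets on the 4 arrays, with the floor of 6 dotted; right, the number of genes (log axis above 1) by the range of the difference over their measured probe sets in HCT116-CDX1 minus HCT116-Vec, with 4 members as dashed lines. The 3 others rise or fall together while 231259_s_at is nearly level, and CCND2 lies at 4.16, to the right of all other genes.

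In the LS174T pair the CCND2 probe sets pointed the same way but by less than 2-fold. The difference was -0.54 in 200952_s_at, -0.50 in 200951_s_at, -0.23 in 200953_s_at and -0.06 in 231259_s_at. All 4 lay below 0 also after quantile normalization, equal medians and a loess on the mean level. The smallest, of 231259_s_at, was within the largest spike-in difference of 0.170.

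Between the vector arrays, LS174T-siVec over HCT116-Vec, 3 of the 4 CCND2 probe sets rose. The fold was 33.0 in 200952_s_at and 21.3 in 200951_s_at, and at least 91.0 in 200953_s_at against a level of 6, while 231259_s_at was 1.56-fold higher. All 4 arrays were also fitted together with limma, with the cell line and the CDX1 label as terms and 1 residual degree of freedom, so that what differs between the pairs counts as error. All 4 CCND2 probe sets were higher in LS174T than in HCT116 in that fit, by 5.68 ± 0.888 (SE) in 200953_s_at (limma adjusted p = 0.0197), 4.22 ± 0.194 in 200952_s_at (0.00107), 3.73 ± 0.164 in 200951_s_at (0.000973) and 0.668 ± 0.148 in 231259_s_at (0.0475). The p-values measure the spread between these arrays and not between separate cultures of a line. The probe sets thus agreed that the line LS174T has more CCND2 signal and differed in its size.

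CCND1, the cyclin D1 gene and a known target of Wnt and RAS signals, followed the CDX1 label in both of its probe sets by less than 2-fold. In 208712_at the level was 11.60 on the array labelled HCT116-CDX1, 11.29 in HCT116-Vec, 10.83 in LS174T-siCDX1 and 11.13 in LS174T-siVec. In 208711_s_at it was 10.76 on the array labelled HCT116-CDX1, 10.38 in HCT116-Vec, 9.92 in LS174T-siCDX1 and 10.38 in LS174T-siVec. The differences were 0.31 and 0.38 in the HCT116 pair and -0.30 and -0.46 in the LS174T pair, with the sign kept under quantile normalization, equal medians and loess. The first of them, 0.31, was within the largest spike-in difference of its pair. The 2 probe sets differed from each other by at most 0.163 in each comparison. CCND1 was nearly level between the vector arrays, at -0.16 and -0.004.

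CCND3, the cyclin D3 gene, gave no change in any comparison. The probe set 201700_at was at 9.58 on the array labelled HCT116-CDX1, 9.92 in HCT116-Vec, 9.92 in LS174T-siCDX1 and 10.20 in LS174T-siVec. Its other probe set, 1562028_at, lay between 6.39 and 6.68 on the 4 arrays. The 2 had opposite signs in the LS174T pair (-0.28 and 0.12) and between the vector arrays (0.29 and -0.29).

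**Figure D3:**
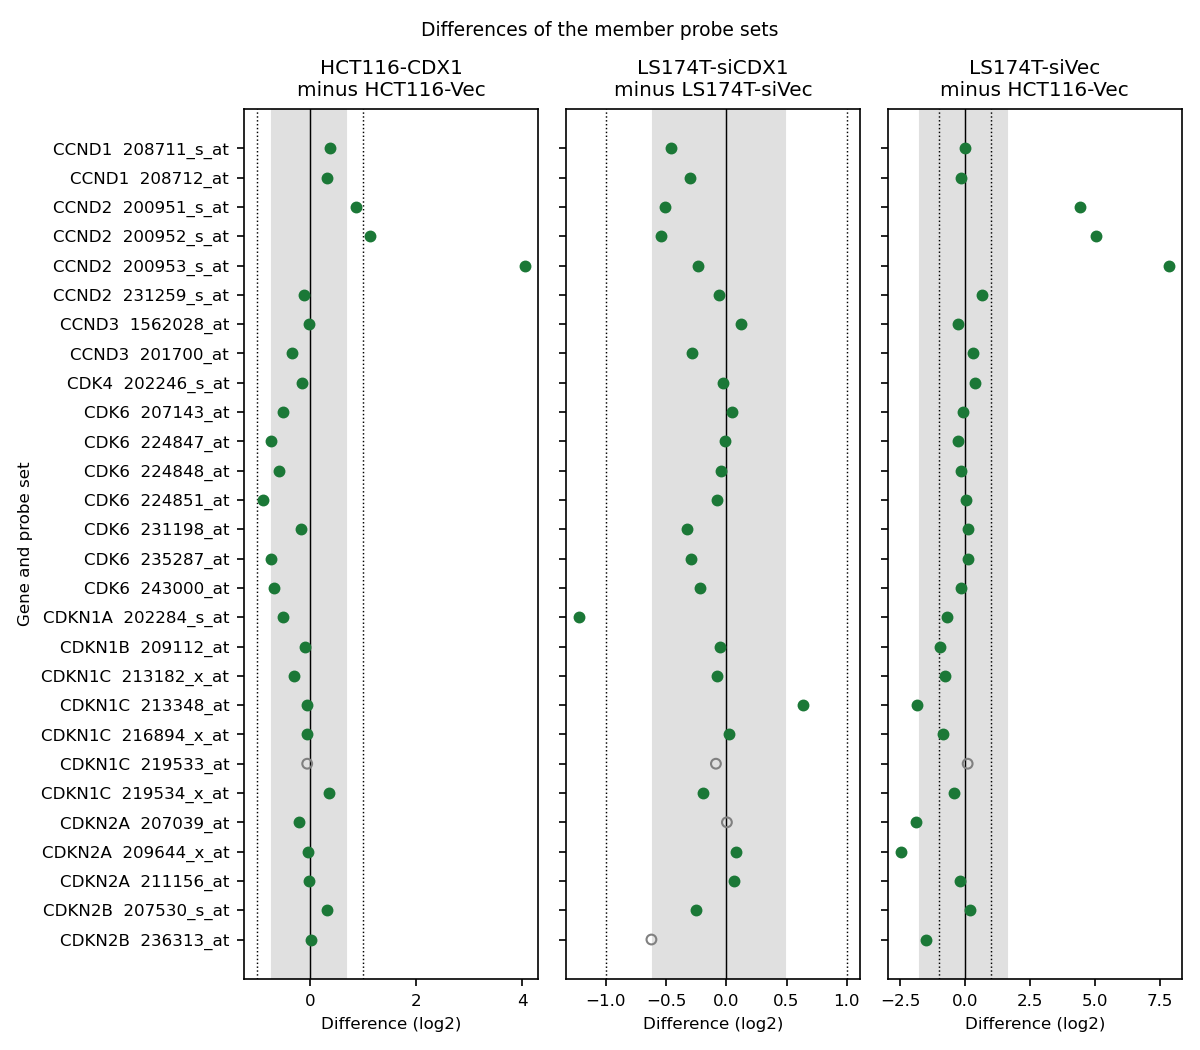
Difference on the log2 scale of each member probe set in the 3 comparisons; filled points were measured (brighter array at least 6), open points were not, dotted lines mark 2-fold and grey bands hold the central 95% of all measured probe sets. CCND2 stands apart on the right in the HCT116 and vector panels and CDKN1A on the left in the LS174T panel; the panels have different horizontal scales.

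CDK6, a kinase partner of the D cyclins, was lower on the array labelled HCT116-CDX1 than on HCT116-Vec in all 7 of its probe sets, and 0 of them passed 2-fold. In 224847_at, its probe set with the highest mean, the level was 10.55 on the array labelled HCT116-CDX1, 11.30 in HCT116-Vec, 11.00 in LS174T-siCDX1 and 11.01 in LS174T-siVec. In 224851_at, where the difference was the largest, it was 9.25 on the array labelled HCT116-CDX1, 10.14 in HCT116-Vec, 10.11 in LS174T-siCDX1 and 10.18 in LS174T-siVec. The array labelled HCT116-CDX1 was the lowest of the 4 in 6 of the 7 probe sets, and in 231198_at LS174T-siCDX1 was lower, at 6.81 against 6.87. The 7 differences of the HCT116 pair ran from -0.89 to -0.18 with a median of -0.67, and all 7 stayed below 0 under the 3 other scalings. The central 95% of all measured probe sets in this pair ran from -0.73 to 0.67, and 3 CDK6 probe sets lay below it. Probe sets of 1 gene share the RNA sample, so they are not replicates.

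In LS174T-siCDX1 against LS174T-siVec the CDK6 probe sets differed by -0.33 to 0.04. Of the 7, 6 lay below 0 as deposited, but 3 did after quantile normalization. Between the vector arrays they differed by -0.29 to 0.12. CDK4, the other kinase, was read by 1 probe set, at 11.65 on the array labelled HCT116-CDX1, 11.81 in HCT116-Vec, 12.15 in LS174T-siCDX1 and 12.17 in LS174T-siVec. Its differences within the pairs were -0.16 and -0.02, both inside the range of the spike-ins, and the second turned to 0.07 after quantile normalization.

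CDKN1A, which encodes the p53-induced inhibitor p21, was the member that fell in LS174T-siCDX1. Its 1 probe set, 202284_s_at, read 10.69 in LS174T-siCDX1 and 11.91 in LS174T-siVec, a difference of -1.22 or a 2.33-fold lower level. On the array labelled HCT116-CDX1 it read 12.11, against 12.62 in HCT116-Vec, a difference of -0.51 that did not reach 2-fold. Both modified arrays therefore read lower than their vector arrays, although the labels name added CDX1 in HCT116 and lowered CDX1 in LS174T. The fall in LS174T-siCDX1 was at least 2-fold under each scaling, between -1.25 and -1.13. CDKN1A has 1 probe set and so no other reading. Among the 7 epithelial markers, all above the floor, KRT8 and KRT19 fell in LS174T-siCDX1 as well, at -1.49 and -1.69. The other KRT19 probe set, at 6.98 in LS174T-siCDX1 and 6.79 in LS174T-siVec, differed by 0.19. The other 5 markers lay below 0 by less than 2-fold. The log2 of the summed marker level was 14.48 in LS174T-siCDX1 and 15.22 in LS174T-siVec. The part of these markers in the CDKN1A difference was not tested. The limma fit, in which opposite differences by label cancel, gave 0.355 ± 0.423 (SE) for the CDX1 label (adjusted p = 0.9999) and -1.07 ± 0.423 for LS174T against HCT116 (adjusted p = 0.176).

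CDKN1B, which encodes the inhibitor p27, was level within both pairs and lower in LS174T. Its level was 11.22 on the array labelled HCT116-CDX1, 11.32 in HCT116-Vec, 10.32 in LS174T-siCDX1 and 10.36 in LS174T-siVec. The differences within the pairs were -0.09 and -0.05, inside the range of the spike-ins. For LS174T against HCT116 limma gave -0.928 ± 0.146 (SE, adjusted p = 0.0199), just under 2-fold.

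CDKN1C, which encodes the inhibitor p57 and is expressed from the maternal allele, had 5 probe sets, of which 4 were measured. In 213348_at, the one with the highest mean, the level was 8.80 on the array labelled HCT116-CDX1, 8.86 in HCT116-Vec, 7.66 in LS174T-siCDX1 and 7.02 in LS174T-siVec. The LS174T-siVec level was 3.57-fold under that of HCT116-Vec, a fall of 1.84 on the log2 scale. The 3 others, 213182_x_at, 216894_x_at and 219534_x_at, fell short of 2-fold between the vector arrays, at -0.76, -0.86 and -0.45. All 4 lay lower in LS174T in the limma fit, with 3 of them called and 213182_x_at at an adjusted p of 0.0666. Within the LS174T pair 213348_at was 1.56-fold higher in LS174T-siCDX1, a difference of 0.64, while the 3 others lay between -0.20 and 0.03. The range of 0.834 between the CDKN1C probe sets in that pair was wider than in 97.3% of 8334 genes. The fifth, 219533_at, was at 4.77 to 4.92 on the 4 arrays and was not measured.

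CDKN2A, the gene of INK4a and ARF, was lower in LS174T than in HCT116 in 2 of 3 probe sets and level within both pairs. In 209644_x_at the level was 9.50 on the array labelled HCT116-CDX1, 9.55 in HCT116-Vec, 7.16 in LS174T-siCDX1 and 7.08 in LS174T-siVec. In 207039_at it was 7.49 on the array labelled HCT116-CDX1, 7.70 in HCT116-Vec, 5.83 in LS174T-siCDX1 and 5.82 in LS174T-siVec, the last 2 under the floor. Between the vector arrays 209644_x_at fell 5.53-fold, and 207039_at fell at least 3.26-fold against a level of 6. Limma gave -2.40 ± 0.142 (SE, adjusted p = 0.00181) and -1.77 ± 0.150 (adjusted p = 0.00423) for LS174T against HCT116. The third, 211156_at, stood at 7.06 to 7.25 on the 4 arrays and differed between the lines by -0.148 ± 0.142 (limma adjusted p = 0.572). The annotation names a source sequence for each of these probe sets, but not whether its probes read the INK4a transcript, the ARF transcript or both. The 2 starts printed above therefore cannot be told apart here. Differences within the pairs ran from -0.22 to 0.08.

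CDKN2B, which lies beside CDKN2A and encodes the TGF-beta-induced inhibitor p15, had 2 probe sets that disagreed between the lines. In 236313_at the level was 7.39 on the array labelled HCT116-CDX1, 7.38 in HCT116-Vec, 5.23 in LS174T-siCDX1 and 5.86 in LS174T-siVec. It fell between the vector arrays, by at least 2.60-fold against a level of 6, and limma gave -1.84 ± 0.199 (SE, adjusted p = 0.00776). In 207530_s_at it was 6.80 on the array labelled HCT116-CDX1, 6.47 in HCT116-Vec, 6.42 in LS174T-siCDX1 and 6.67 in LS174T-siVec, with no order by line. MTAP, the gene on the other side of CDKN2A, was 4.06-fold lower in LS174T-siVec than in HCT116-Vec in its probe set with the highest mean, at 9.16 and 11.19. Of the 6 MTAP probe sets, 4 fell, at -2.02 to -1.37, and the other 2, at 6.94 or less on each of these arrays, differed by -0.36 and 0.23. The other neighbours, CDKN2B-AS1 and DMRTA1, were not measured.

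Over the whole set, 2 of the 27 measured probe sets rose and 0 fell on the array labelled HCT116-CDX1, where 0.795% of 40507 measured probe sets rose and 0.788% fell. In LS174T-siCDX1, 0 of 25 rose and 1 fell, where 0.493% of 40584 rose and 1% fell. Between the vector arrays 3 of 27 rose and 4 fell, where 5.87% of 41097 rose and 5.97% fell. Both rises of the first comparison are CCND2 and the fall of the second is CDKN1A, so each rests on 1 gene. The median difference of the members was -0.09, -0.08 and -0.16 in the 3 comparisons, against 0.01, 0.00 and 0.03 over all measured probe sets. The comparisons share arrays, HCT116-Vec and LS174T-siVec each being used in 2 of the 3.

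The limma fit across 41999 probe sets called 11 of 27 member probe sets for the cell line, 4 higher in LS174T, all of CCND2, and 7 lower, of CDKN1B, CDKN1C, CDKN2A and CDKN2B. Over all probe sets 15.6% were called, 7.82% higher and 7.8% lower. The cyclin calls thus rest on CCND2 alone. Both CCND1 probe sets leaned lower in LS174T without being called, at -0.425 ± 0.143 (SE) in 208711_s_at and -0.466 ± 0.142 in 208712_at. The inhibitor CDKN1A was not called either. For the CDX1 label limma called 0 of 27 members and 0% of all probe sets at an adjusted p of 0.05. KRT20, at 3.03 in the HCT116 pair and -2.70 in the LS174T pair, was not called either. With 1 residual degree of freedom the fit missed even that difference, so 0 calls are no evidence that the members are unchanged. At an unadjusted p under 0.05 there were 3 members, CCND2 200951_s_at (0.684 ± 0.164, SE), CCND2 200952_s_at (0.830 ± 0.194) and CCND1 208711_s_at (0.421 ± 0.143), among 1430 of the 41999 probe sets. The other CCND1 probe set, 208712_at (0.305 ± 0.142), and the other CCND2 probe sets were not among them.

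Genes around the cyclin D step were read from 1 probe set each, the one with the highest mean, and were grouped in 10 lists. In the RB family and E2F list, the proteins that D cyclin kinases act on, 0 of 13 measured genes changed in either pair, with medians of -0.02 in HCT116 and 0.03 in LS174T. Over all genes 1.89% changed in the HCT116 pair, 1.85% in the LS174T pair and 13.4% between the vector arrays. RBL2, the p130 pocket protein, was 0.54 higher on the array labelled HCT116-CDX1, and RB1 was at -0.05 in both pairs. In the list of cyclin E and A with CDK2, which act after the cyclin D step, 0 of 9 changed, with a median of -0.40 in HCT116 and 0.00 in LS174T. In the HCT116 pair 8 of the 9 lay below 0, among them CCNE1 at -0.47 and CCNA2 at -0.48. After quantile normalization or loess 7 of the 9 did, and 51.0% of all measured genes lay below 0 as deposited. Between the vector arrays CCNE2, a cyclin of the G1 to S step, and E2F3 fell, at -1.68 and -1.14. The other CCNE2 probe set differed by -1.36, but the other E2F3 probe set, at 9.03 in LS174T-siVec and 9.26 in HCT116-Vec, by only -0.23.

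Replication and proliferation genes under E2F lay mostly below 0 on the array labelled HCT116-CDX1 and above 0 in LS174T-siCDX1, without a gene at 2-fold. Of 17 measured, 14 lay below 0 in the HCT116 pair, with a median of -0.29 against -0.01 for all genes, and 0 changed. In the LS174T pair 14 lay above 0, with a median of 0.22 against -0.01, and again 0 changed. With equal medians 12 of the 17 lay above 0 in the LS174T pair, and after quantile normalization 13 lay below 0 in the HCT116 pair. Of all measured genes 51.0% lay below 0 in the HCT116 pair and 51.2% in the LS174T pair. PCNA and ORC1, a polymerase clamp and an origin-binding subunit, were lowest in HCT116, both at -0.75. In the turnover list, which holds ligase parts and kinases that mark D cyclins and CIP/KIP inhibitors for breakdown, 0 of 11 changed in either pair. SKP2 and CKS1B, which act together in p27 breakdown, were at -0.50 and -0.53 in HCT116 and at 0.21 and 0.28 in LS174T. FBXO4, a ligase part for cyclin D1, rose by 1.15 between the vector arrays. CDKN2D, the other INK4 gene read, differed by -0.04 and 0.34 within the pairs.

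Of the other p53 target genes, none of the 18 measured reached 2-fold in LS174T-siCDX1, where CDKN1A fell. Of these, 13 lay below 0, with a median of -0.20, and 10 lay below 0 after quantile normalization. TP53I3, an oxidoreductase gene, was nearest to 2-fold at -0.88, and MDM2, whose product degrades p53, was at -0.19. On the array labelled HCT116-CDX1, where CDKN1A was at -0.51, 2 of 18 fell, PLK2 at -1.72 and the pro-apoptotic BAX at -1.01, and the median was -0.18. Over all genes 1.89% changed in either direction there. The other BAX probe set, at 7.14 on the array labelled HCT116-CDX1 and 7.97 in HCT116-Vec, differed by -0.83 and did not reach 2-fold. Between the vector arrays 4 of 18 fell, PLK2 at -3.06, RRM2B at -2.31, TP53INP1 at -1.41 and TP53I3 at -1.40. A further measured TP53INP1 probe set, at 7.58 in LS174T-siVec and 7.60 in HCT116-Vec, differed by -0.02.

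**Figure D4:**
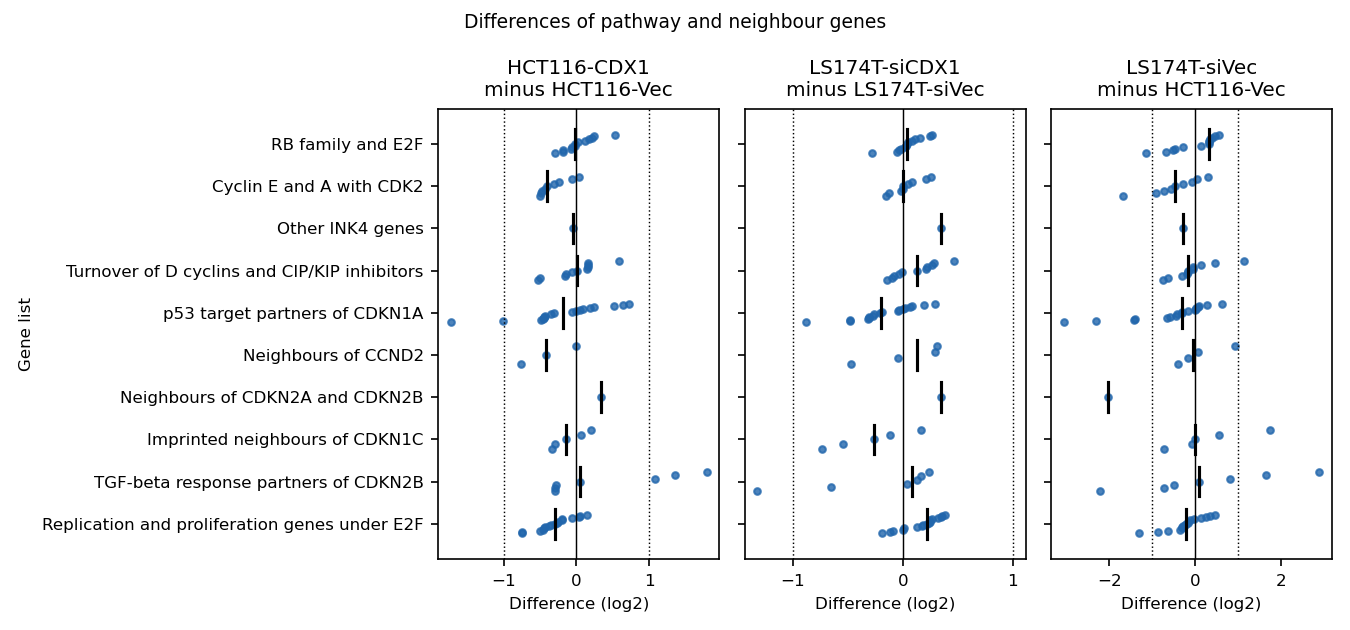
Difference on the log2 scale of each measured gene (points) of the 10 gene lists in the 3 comparisons, with list medians as black bars and 2-fold as dotted lines. Replication and proliferation genes under E2F lie mostly left of 0 in the HCT116 panel and right of it in the LS174T panel; the panels have different horizontal scales.

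No gene read beside CCND2 (TIGAR, PARP11, RAD51AP1, DYRK4) reached 2-fold in a comparison where it was measured. TIGAR, a sugar phosphatase gene, was at -0.76 in the HCT116 pair, where PARP11 was not measured. PARP11 was 0.94 higher in LS174T-siVec than in HCT116-Vec. Among imprinted neighbours of CDKN1C, KCNQ1, a potassium channel gene, rose by 1.75 between the vector arrays, opposite in sign to CDKN1C, and the other 4 measured did not reach 2-fold. KCNQ1OT1, the long noncoding RNA of that domain, was at -0.07.

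In the list of TGF-beta response genes, chosen as partners of CDKN2B, 3 of 7 rose on the array labelled HCT116-CDX1. These were SKIL by 1.79, TGFB1I1 by 1.36 and SMAD7 by 1.08, of which SKIL and SMAD7 encode inhibitors of the pathway. CDKN2B itself was at 0.32 and 0.02 in its 2 probe sets there. Over all genes 1.89% changed in either direction in the HCT116 pair and 1.85% in the LS174T pair. The list was chosen with earlier results of these data known, so the count describes these genes only. In LS174T-siCDX1, TGFBI, a matrix protein gene, fell among 6 measured, to 7.49 against 8.81 in LS174T-siVec. SKIL had 4 other probe sets, of which 3 were not measured in the HCT116 pair and the fourth differed by 0.41 there.

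Likeness to CCND2 and CDKN1A was measured as the Euclidean distance between 4-array profiles, each centred on its own mean, over 17279 other genes. For CCND2 the profile was that of 200953_s_at alone, which lay under the floor in HCT116-Vec, at 4.69. The other CCND2 probe sets, which differed less in the HCT116 pair, were not compared in this way. The 5 genes nearest to 200953_s_at were TSPAN8 at distance 1.69, LRATD1 at 2.28, CDH17 at 2.41, FSTL5 at 2.53 and PPP1R1B at 2.58. TSPAN8, a tetraspanin gene, was at 8.27 on the array labelled HCT116-CDX1, 6.05 in HCT116-Vec, 11.58 in LS174T-siCDX1 and 11.93 in LS174T-siVec, the same order as 3 of the CCND2 probe sets. CDH17, the liver-intestine cadherin gene, followed that order too, at 7.49, 6.19, 10.72 and 11.63 on the same arrays. The 5 nearest to CDKN1A were PSTPIP2 at 0.167, SAMD4A at 0.195, C19orf33 at 0.262, TOB1 at 0.323 and S100A11 at 0.356. TOB1, an antiproliferative gene, was at 10.33 in LS174T-siCDX1 and 11.56 in LS174T-siVec, and at 11.51 on the array labelled HCT116-CDX1 and 11.90 in HCT116-Vec. With 4 points a profile holds little, and nearness is a description.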

How the data were processed

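Total RNA from a CDX1-modified and a vector derivative of each of 2 colorectal cancer lines was hybridised to 1 array each. Per the submitters' processing notes the authors used RMA, a method that corrects background, gives arrays 1 distribution and combines probes, with no version given. The deposited values are log2 expression of 54675 probe sets, with array medians of 7.04 to 7.06, and were used as deposited. The scale was read from the values. RMA compresses differences near background, so folds of dim probe sets are understated or unstable.

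The platform annotation listed 1 gene for 41097 probe sets, several for 1801 and none for 11777, and 41043 matched a RefSeq gene (GRCh38.p14) by identifier, with 0 symbols renewed. Lists were read from 1 probe set per gene, and 88 of 99 list genes were read. The floor of 6 and the 2-fold threshold gave no test. The limma 3.58.1 fit in R 4.3.3 took in probe sets at 6 or more on any array, adjusted p-values over all of these by Benjamini-Hochberg, and was tested on simulated data. Levels, differences and lists were computed in Python 3.11.15 with pandas 2.3.3, numpy 2.4.6 and statsmodels 0.14.6. Settings also tried were a floor of 7 or none, quantile normalization, equal medians, a loess on the mean level (span 0.3), levels under 6 set to 6, thresholds of 1.5-fold and 3-fold, means over probe sets, leaving out names ending in _x_at or _s_at, and an intensity trend, robust moderation or no cell line term in limma.

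Members, lists and rules were chosen with earlier results of these data known. Named genes were all members, list genes that changed within a pair, up to 4 per list by the difference between the vector arrays, and the 5 nearest profiles of CCND2 and CDKN1A. Other list genes and the markers COL1A1, CD3E, LUM, CD14, LYZ, KRT8, KRT19, VIL1, CDH1 and EPCAM were chosen after their values were seen.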

Additional observations from a re-analysis of the deposited data

Results flagged for a closer look

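In 3 member probe sets the difference that goes with the CDX1 label ran in opposite directions in the 2 lines, each beyond every spike-in difference of its pair. In each of them both modified arrays read lower than their vector arrays. How many of all probe sets meet this rule was not counted, so the number is a description of the members only. CDKN1A 202284_s_at differed by -0.51 in HCT116-CDX1 minus HCT116-Vec and by -1.22 in LS174T-siCDX1 minus LS174T-siVec. CDK6 235287_at differed by -0.74 and -0.29, and CDK6 243000_at by -0.67 and -0.22, in the same comparisons. The central 95% of all measured probe sets ran from -0.61 to 0.49 in the LS174T pair, which holds both CDK6 values. In the HCT116 pair it ran from -0.73 to 0.67, which holds the value of 243000_at. The other CDK6 probe sets did not meet this rule. In the LS174T pair 224847_at, with the highest mean, was at -0.007, 224848_at at -0.05, 224851_at at -0.08 and 207143_at at 0.04. In the HCT116 pair 231198_at was at -0.18, inside the range of the spike-ins. The difference between the lines was not tested, since each rests on 1 array per title.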

How the results depend on the processing

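The fall of CDKN1A and both rises of CCND2 within the pairs, and the 7 changed probe sets between the vector arrays, kept their sign under each floor and scaling tried that still measured them. The threshold moved the counts most. At 1.5-fold, 8 member probe sets changed in the HCT116 pair (3 higher and 5 lower), 2 in the LS174T pair and 12 between the vector arrays, and 2, 2 and 5 genes did. At 3-fold, 1 probe set remained past the threshold in the HCT116 pair, and 0 probe sets and 0 genes in the LS174T pair. Without probe sets whose names end in _x_at or _s_at, 0 genes changed in either pair, because CCND2 and CDKN1A have no others. Recomputed differences of single probe sets stayed within 1 standard deviation of the spike-ins in 449 cases and moved further in 15, 11 of them under quantile normalization in the LS174T pair and 4 with levels under 6 set to 6. The cell line fit called 10 to 12 member probe sets under all settings, and the CDX1 label fit 0. The labels carry no replicate numbers, and the cell line term pairs the arrays by line. With it, 0 probe sets were called for the CDX1 label and 1430 had an unadjusted p under 0.05, and without it 0 and 139. Levels near the floor, above all CCND2 in HCT116-Vec, limit what a fold can say.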
